A study of Mus musculus with 4 samples.

Results

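The 45 genes described here drive and execute the cell division cycle, and were measured by RNA sequencing in otic vesicles, the epithelial sacs that give rise to the inner ear. They were taken from a fixed list of S phase and mitosis genes, and all 45 were found among the 34866 genes of the deposited table. By their known roles they fell into 15 genes of DNA replication, 20 genes of mitosis and 10 regulators of G1 and of the step from G1 into S phase. There were 2 libraries of Meis2 mutant embryos (KO 1 and KO 2) and 2 libraries of wild-type embryos (WT 1 and WT 2), all of strain C57/BL6 at embryonic day 11.5. Meis2 encodes a homeodomain transcription factor. No source used here gives the mutant allele, the deleted part of the gene or the number of embryos or vesicles per library. The p-values below therefore rest on the spread among 4 libraries alone, and that spread may be technical.

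Cells that enter the cycle first make D-type cyclins, which activate the kinases Cdk4 and Cdk6 and release E2F transcription factors from the retinoblastoma protein. E2F factors then switch on genes that license replication origins, unwind DNA and supply nucleotides. Genes of G2 and mitosis follow later, and many of them are controlled through a promoter element called the CHR (cell cycle genes homology region) together with CCAAT boxes. At this stage the vesicle is a growing epithelium in which progenitors divide, while neuroblasts that leave it become postmitotic neurons.

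Values are gene-level TPM, which are scaled for transcript length and to a fixed total per library. TPM keeps no depth, so no counting error can be set beside a value and the depth is unknown. Each library summed to 1000000 TPM, with between 20829 and 21685 genes above 0. Meis2 itself was at 73.2 and 76.6 TPM in KO 1 and KO 2, against 79.0 and 88.7 TPM in WT 1 and WT 2, a log2 difference of -0.16 (SE 0.087, limma adjusted p = 1.00). A gene-level value cannot show a missing exon, so Meis2 does not check the genotype labels. Of 15 markers of otic epithelium, 0 were at 0 in any library. Their summed level was 1442 and 1537 TPM in the KO libraries and 1890 and 1750 TPM in the WT libraries. The 4 Y-linked genes checked summed to 2.07 and 123.2 TPM in the KO libraries and to 30.3 and 3.04 TPM in the WT libraries. Values of markers of other cell types stand beside the results below.

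The promoters of the cell cycle genes are shown first, because the replication and the mitosis genes can be set side by side in sequence before their levels. RefSeq promoters (build GRCm38.p6, 250 bases before to 50 bases after the start site) were matched by symbol for 35 of the 45 genes, with 39 promoters in all. Aurkb, Ccna2, Ccnd1, Ccnd2, Ccne2, Gins1, Gins2, Kif20a, Mcm4 and Tpx2 had no entry. All motifs were searched on both strands. The E2F motif was taken as TTCCCGC, as TTGGCGC and as TTCGCGC, and the CHR motif as TTTGAA and as TTTAAA, beside the CCAAT box. E2F matches can overlap each other, as in Mcm6, or a CCAAT box, as in Ccnb1. The 6 promoters printed here are those of a pair of helicase subunits, of 3 mitosis genes that recur below, and of Cdk4, the most abundant of the 45 genes. Capitals mark motif matches. Mcm3 lies at chr1:20820263-20820562 and Mcm6 at chr1:128359656-128359955, both on the minus strand. Ccnb1 lies at chr13:100786437-100786736, Cdk1 at chr10:69352863-69353162 and Kif23 at chr9:61946750-61947049, all on the minus strand. Cdk4 lies at chr10:127063285-127063584 on the plus strand.
Mcm3: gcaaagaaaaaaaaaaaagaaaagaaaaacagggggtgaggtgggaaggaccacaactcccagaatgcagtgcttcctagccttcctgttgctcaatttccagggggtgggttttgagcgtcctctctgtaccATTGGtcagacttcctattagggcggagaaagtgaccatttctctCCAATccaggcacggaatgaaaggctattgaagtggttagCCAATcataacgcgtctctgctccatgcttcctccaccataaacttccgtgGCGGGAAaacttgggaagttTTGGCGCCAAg
Mcm6: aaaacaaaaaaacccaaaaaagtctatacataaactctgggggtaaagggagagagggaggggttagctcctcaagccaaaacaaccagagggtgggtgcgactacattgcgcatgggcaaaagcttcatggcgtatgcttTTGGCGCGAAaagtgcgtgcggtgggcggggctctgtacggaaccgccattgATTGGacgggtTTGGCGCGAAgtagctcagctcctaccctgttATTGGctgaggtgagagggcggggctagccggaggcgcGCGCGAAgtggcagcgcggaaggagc
Ccnb1: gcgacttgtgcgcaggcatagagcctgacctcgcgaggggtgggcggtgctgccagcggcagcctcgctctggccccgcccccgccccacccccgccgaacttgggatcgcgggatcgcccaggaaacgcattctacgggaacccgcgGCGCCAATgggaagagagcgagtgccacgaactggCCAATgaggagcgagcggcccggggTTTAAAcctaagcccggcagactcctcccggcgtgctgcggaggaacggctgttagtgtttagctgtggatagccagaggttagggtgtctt
Cdk1: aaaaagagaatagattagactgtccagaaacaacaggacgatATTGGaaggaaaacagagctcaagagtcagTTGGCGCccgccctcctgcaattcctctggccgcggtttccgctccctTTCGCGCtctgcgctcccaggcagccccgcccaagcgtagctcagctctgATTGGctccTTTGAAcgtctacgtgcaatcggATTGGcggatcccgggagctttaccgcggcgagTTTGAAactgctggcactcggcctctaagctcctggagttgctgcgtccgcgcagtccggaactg
Kif23: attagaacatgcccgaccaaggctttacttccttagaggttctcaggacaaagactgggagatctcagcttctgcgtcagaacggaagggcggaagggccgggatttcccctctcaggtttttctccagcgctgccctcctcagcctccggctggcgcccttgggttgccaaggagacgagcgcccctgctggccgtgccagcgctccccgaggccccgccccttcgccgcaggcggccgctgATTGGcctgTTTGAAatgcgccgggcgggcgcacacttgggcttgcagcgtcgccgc
Cdk4: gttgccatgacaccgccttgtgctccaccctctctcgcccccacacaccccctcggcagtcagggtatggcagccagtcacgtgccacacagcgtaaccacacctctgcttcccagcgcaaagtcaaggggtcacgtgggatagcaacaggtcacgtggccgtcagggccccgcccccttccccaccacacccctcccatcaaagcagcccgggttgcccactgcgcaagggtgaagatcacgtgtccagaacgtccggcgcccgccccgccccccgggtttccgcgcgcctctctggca

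An E2F motif was present in 9 of 13 promoters of the replication genes (69.2%), in 3 of 17 promoters of the mitosis genes (17.6%) and in 2 of 9 promoters of the G1 and G1/S regulators (22.2%). Over all 32851 RefSeq promoters of the same length the share was 8.07%. A CHR motif was present in 3 of 13 replication promoters (23.1%) and in 15 of 17 mitosis promoters (88.2%), against 27.6% of all promoters. The CCAAT box was common in both groups, with 76.9% of replication promoters, 94.1% of mitosis promoters and 37.4% of all promoters. All 15 mitosis promoters (88.2%) with a CHR motif also held a CCAAT box, a pair found in 10.7% of all promoters. The 2 promoters of Bub3 overlap and share these matches, so by gene the pair was found in 14 of 16. The promoters of the mitosis genes Ccnb1, Cdk1 and Mki67 and of the replication gene Mcm5 held E2F and CHR motifs together. Those of Tyms, Mad2l1, Cdk4, Cdk6 and E2f1 held none of the motifs in this window. The windows of E2f1 and Cdk6 lay wholly inside the annotated span of the gene. The sequence upstream of these annotated genes was therefore not searched. The windows of Cdc6 and Mcm7, which held matches, also lay inside the annotated span. In the other genes of the pathway the E2F motif was in 54.3% of 46 replication promoters and in 25.5% of 55 mitosis promoters, and the CHR motif in 26.1% and in 69.1% of them. These are matches of letters and not binding sites.

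**Figure D1:**
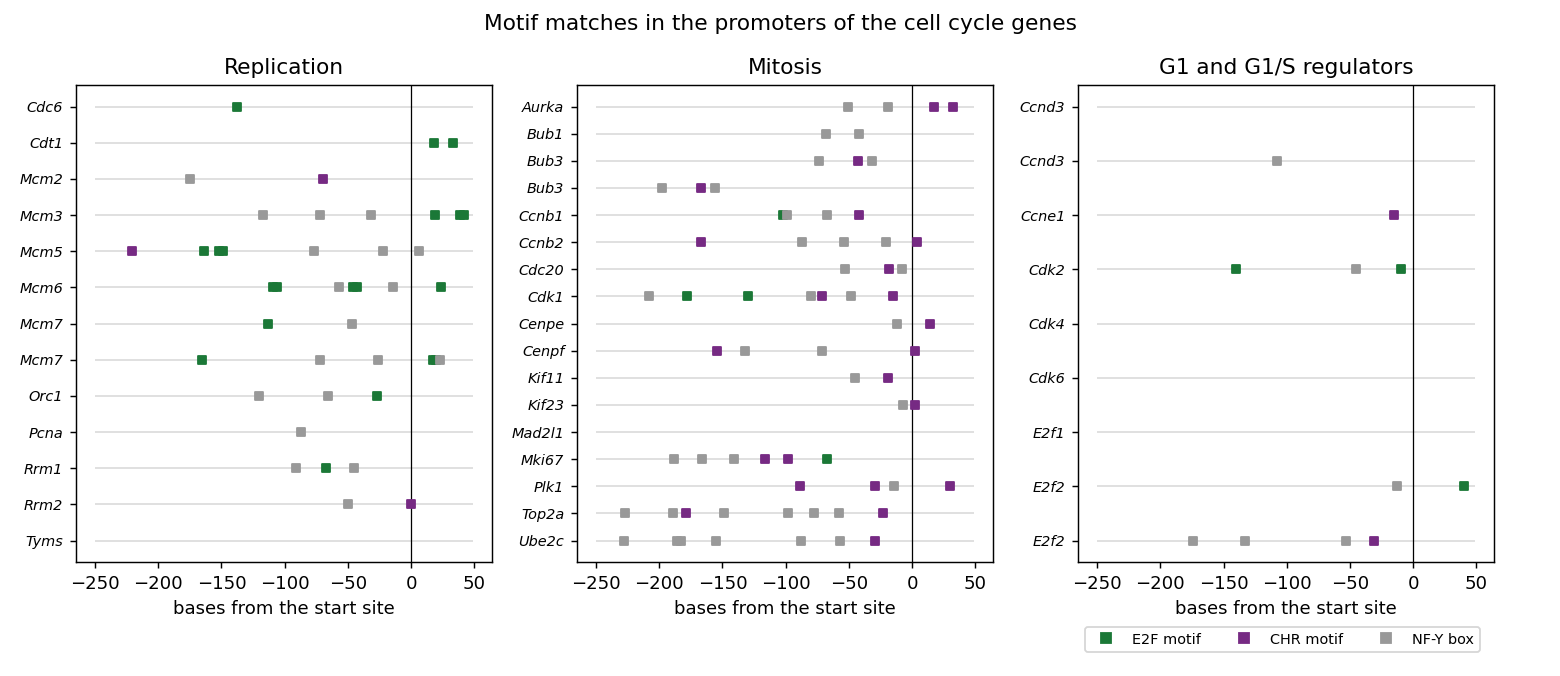
Motif matches in the 39 promoters of the 35 cell cycle genes with an entry, by distance in bases from the start site (0), with 1 line per promoter. Green squares (E2F motif) lie mainly in the replication panel, where 9 of 13 promoters have a match, and purple squares (CHR motif) in the mitosis panel, where 15 of 17 do; grey squares are CCAAT boxes (NF-Y box in the legend).

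The cell cycle genes were among the abundant transcripts of the vesicle. Their median level was 121 TPM, against 19.8 TPM over the 14496 genes tested, those whose 4 libraries averaged 1 TPM or more. All 45 passed this filter, and 36 of them lay at or above the 80th percentile of the tested genes. The 45 genes together took 0.787% and 0.768% of all TPM in KO 1 and KO 2, against 0.785% and 0.779% in WT 1 and WT 2. The sum differed less between the genotypes than between the KO libraries.

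Among the replication genes the highest was Pcna, the sliding clamp that holds DNA polymerases on the template. Pcna (ENSMUSG00000027342.14, chromosome 2, 132249162 to 132253314, GRCm38) was at 349 and 346 TPM in KO and at 414 and 359 TPM in WT. Next came Mcm7, at 241 and 247 TPM in KO and 253 and 257 TPM in WT. The subunits of the Mcm2-7 helicase, which form a ring with 1 copy of each, kept close to each other. The highest of the 6 was at 1.71 and 2.13 times the lowest in KO 1 and KO 2, against 1.89 and 2.08 times in WT 1 and WT 2. Mcm7 was the highest and Mcm4 the lowest in every library. The ribonucleotide reductase subunits were also near parity, with Rrm2 over Rrm1 at 0.886 and 0.95 in KO and at 0.861 and 1.02 in WT. The factors that load the helicase were the least abundant. Cdc6 averaged 32.2 ± 2.21 TPM in KO and 30.3 ± 0.869 TPM in WT, and Orc1, a subunit of the origin recognition complex, averaged 15.4 ± 1.47 TPM in KO and 15.9 ± 0.129 TPM in WT (SD, n = 2 each).

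Among the mitosis genes the highest was Top2a, which untangles sister chromatids. Top2a was at 437 and 434 TPM in KO, against 442 and 399 TPM in WT. Cdk1, the kinase that starts mitosis, and Ube2c, an enzyme of the anaphase-promoting complex, followed with means between 311 and 369 TPM in either genotype. The partners of Cdk1 stood in a steady ratio: Ccnb1 over Ccnb2 was 1.45 and 1.5 in KO and 1.48 and 1.45 in WT. Aurka and Aurkb, kinases of the spindle poles and of the centromeres, were near parity, at 0.895 and 0.894 in KO and 0.966 and 0.850 in WT. The lowest were Cenpe and Cenpf, which encode large kinetochore proteins. Cenpe averaged 39.4 ± 3.17 TPM in KO and 38.8 ± 2.16 TPM in WT, and Cenpf 42.9 ± 4.50 TPM in KO and 42.96 ± 8.89 TPM in WT (SD, n = 2 each).

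The regulators of G1 spanned the widest range. Cdk4 (ENSMUSG00000006728.12, chromosome 10, 127063534 to 127067920) was at 1587 and 1525 TPM in KO and at 1525 and 1622 TPM in WT. Its relative Cdk6 was at 6.33 and 7.10 TPM in KO and at 6.85 and 5.75 TPM in WT. Cdk4 was thus 251 and 215 times as abundant as Cdk6 in the KO libraries and 223 and 282 times in the WT libraries. Among the cyclins that activate these kinases, Ccnd1 was the highest, at 349 and 361 TPM in KO and 353 and 353 TPM in WT. Ccnd2 was at 187 and 179 TPM in KO and at 201 and 185 TPM in WT. Ccnd3 was at 192 and 171 TPM in KO and at 175 and 184 TPM in WT, a range that overlapped that of Ccnd2. The summed D cyclins exceeded the summed E cyclins 8.08-fold and 7.58-fold in KO and 7.35-fold and 8.18-fold in WT. E2f1 exceeded E2f2 2.58-fold and 2.61-fold in KO and 2.96-fold and 2.50-fold in WT.

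**Figure D2:**
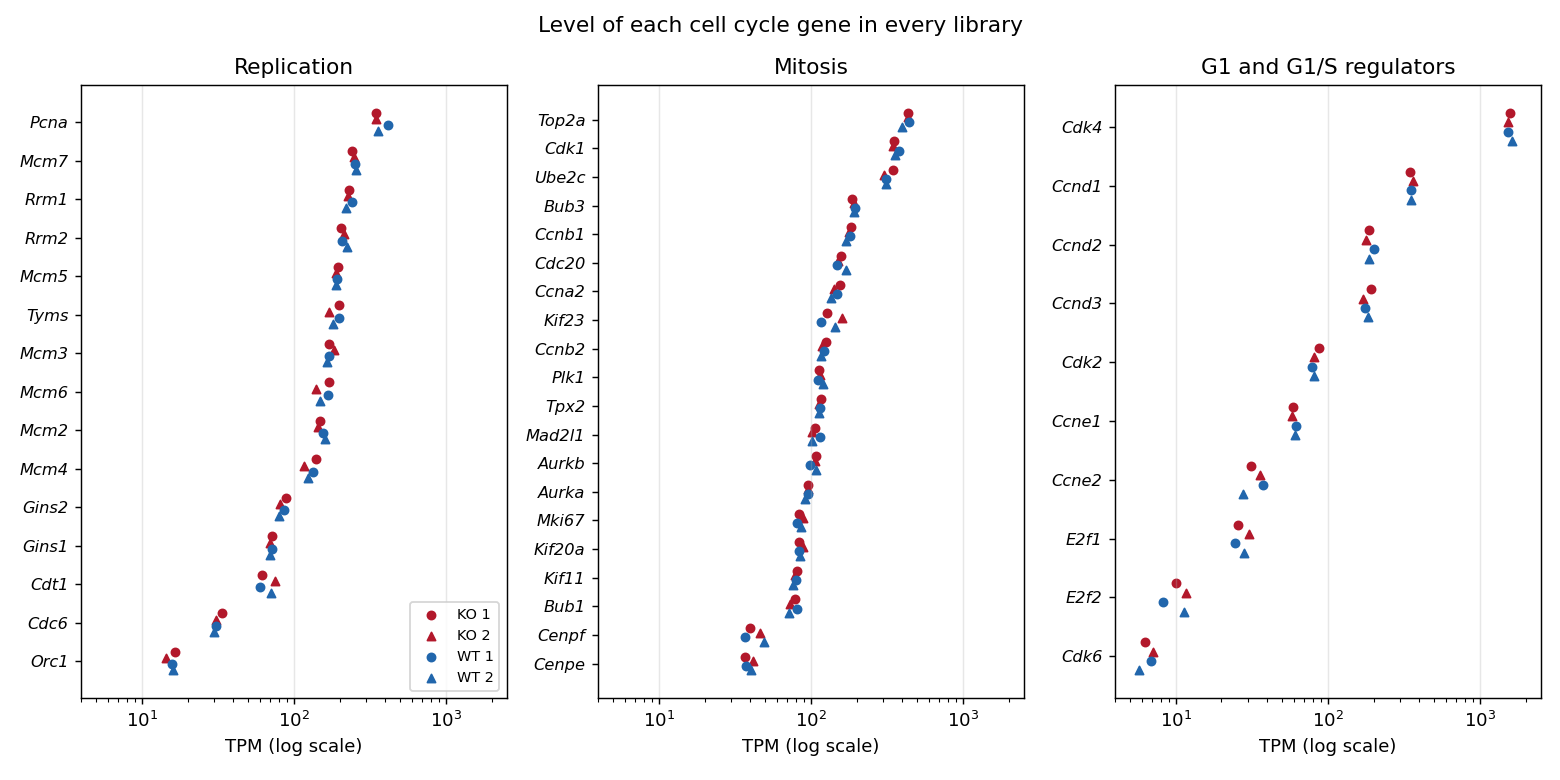
TPM (log scale) of each of the 45 cell cycle genes in KO 1, KO 2 (red) and WT 1, WT 2 (blue), in panels by role and ordered by mean level. For most genes the 4 points nearly coincide, and the regulators run from Cdk6, near 6 TPM, to Cdk4, at 1525 TPM or more.

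In the comparison of Meis2 mutant with wild-type vesicles, no cell cycle gene passed the threshold. The test was limma on log2(TPM + 1) with Benjamini-Hochberg adjustment over the 14496 genes and a threshold of 0.05. It called 0 of the 45 genes, and 0.0% of all genes tested. At an unadjusted limma p under 0.05 there were also 0 of the 45, against 3.5% of all genes (2.09% higher and 1.41% lower in KO), and the smallest p among the 45 was 0.168. The log2 differences, KO minus WT, ran from -0.15 for Pcna to 0.15 for E2f2, which is 0.899 to 1.11 times the WT mean in linear terms. For 42 of the 45 the size was under 0.1. The median size was 0.042, against 0.093 over all genes tested and 0.077 over the 10640 tested genes at least as abundant as the lowest of the 45. In sign, 27 were higher and 18 lower in KO, with a median of 0.016 beside a median of 0.035 over all genes tested. This split depends on the scaling. With median-of-ratios scaling 17 were higher and 28 lower, with a median of -0.015 beside 0.0058 over all genes tested.

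The 95% limma intervals say how large a difference these libraries leave room for. They held 0 for all 45 genes and lay inside ±1 (a 2-fold change either way) for all 45, against 86.9% of all genes tested. They lay inside ±0.5 (1.41-fold) for 42 of the 45, against 55.1% of all genes tested and 73.1% of those at least as abundant as the lowest of the 45. The other 3, named after their values were seen, were Kif23, whose interval reached 0.56, E2f2, whose interval reached 0.65, and Ccne2, whose interval reached 0.502. The intervals rest on 2 libraries per genotype and on a variance shared with genes of like level.

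**Figure D3:**
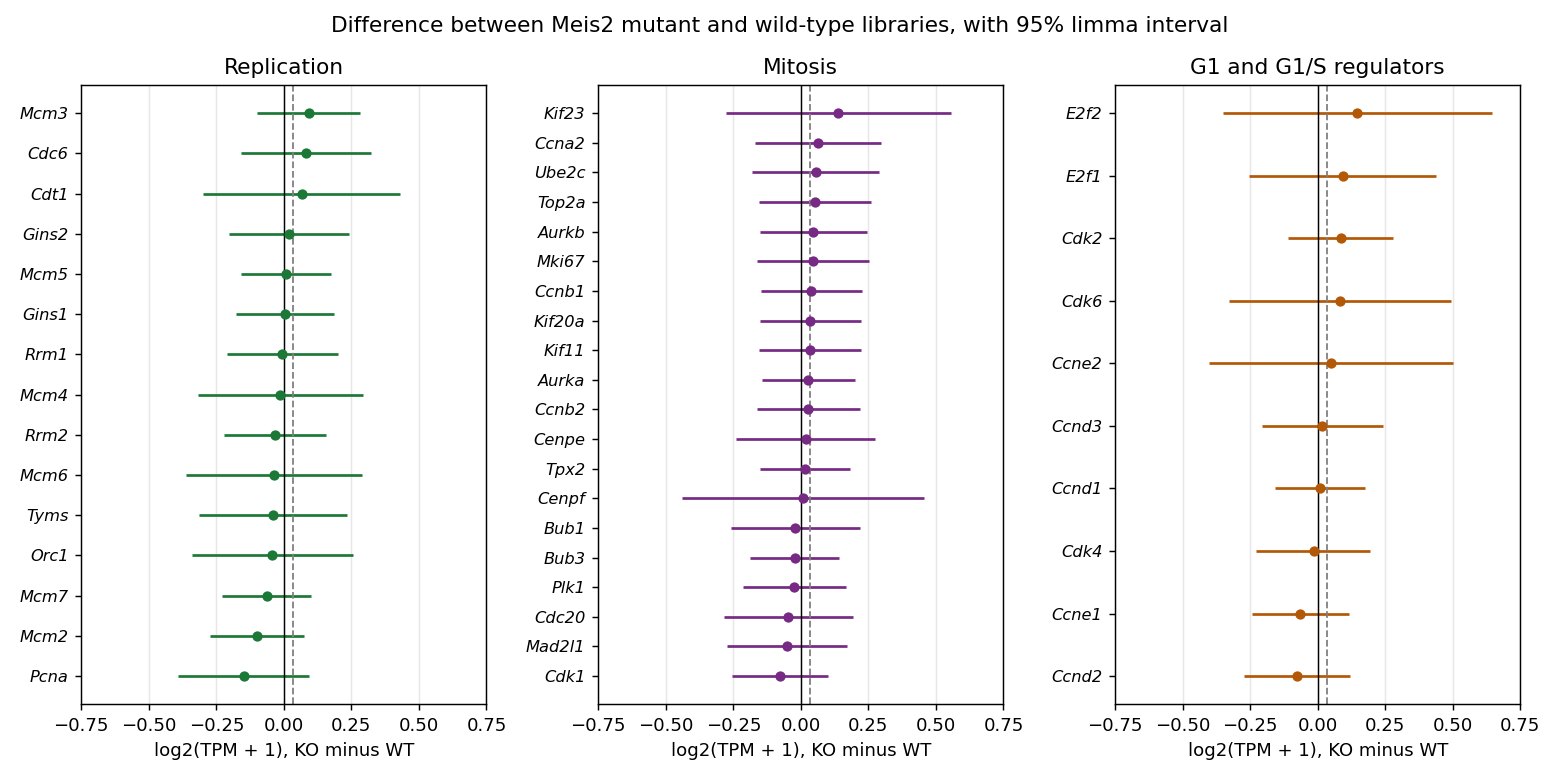
Log2(TPM + 1) difference, KO minus WT, for each of the 45 cell cycle genes (points) with its 95% limma interval (lines), in panels by role. Every interval crosses 0; the dashed line is the median of all genes tested, 0.035.

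KO and WT did not overlap for 7 of the 45 genes (15.6%), against 29.8% of all genes tested and 29.7% of those at least as abundant as the lowest of the 45. In 2 of the 45 both KO libraries lay above both WT libraries (19.2% of all genes tested), and in 5 they lay below (10.5%). Those above were Mcm3 and Cdk2, and those below were Pcna, Mcm2, Mcm7, Cdk1 and Ccne1. The helicase subunits thus lay on either side. Mcm2 was at 149 and 143 TPM in KO and at 154 and 159 TPM in WT, a log2 difference of -0.099 (SE 0.066, 95% interval -0.27 to 0.074). Mcm3 was at 171 and 185 TPM in KO and at 170 and 164 TPM in WT, a difference of 0.091 (SE 0.072, 95% interval -0.098 to 0.28). The KO libraries stood just under the WT libraries for Mcm2 and just above them for Mcm3. Mcm7 differed by -0.063 (SE 0.062). The other 3 subunits, Mcm4, Mcm5 and Mcm6, overlapped between the genotypes, with differences of -0.013, 0.0084 and -0.036.

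Pcna had the smallest p of the 45 genes, with a log2 difference of -0.15 (SE 0.092, limma adjusted p = 1.00). The KO libraries were 349 and 346 TPM and the WT libraries 414 and 359 TPM, so that WT 1 stood apart from the other libraries. Without WT 1 the difference was -0.046. Pcna also has a processed pseudogene, Pcna-ps2 (ENSMUSG00000067608.4, chromosome 19, 9283380 to 9284160), which was at 119.9 and 102.4 TPM in KO and at 92.5 and 94.98 TPM in WT. Pcna-ps2 thus lay on the other side, above WT in both KO libraries, with a log2 difference of 0.24 (SE 0.098, 95% interval -0.02 to 0.50, limma adjusted p = 1.00). Aligned without gaps, the Pcna coding sequence and the pseudogene differed at 6 of 781 bases, with an identical stretch of 246 bases. The 120 bases that hold 3 of these differences, positions 580 to 699 of the coding sequence in GENCODE M21 (GRCm38), are shown to make the likeness visible. Capitals mark the bases that differ.
Pcna: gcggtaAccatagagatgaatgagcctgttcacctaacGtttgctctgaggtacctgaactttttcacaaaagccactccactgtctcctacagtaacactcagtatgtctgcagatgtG
Pcna-ps2: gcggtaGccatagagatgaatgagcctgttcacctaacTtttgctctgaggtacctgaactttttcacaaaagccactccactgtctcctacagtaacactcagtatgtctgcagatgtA

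Reads that fall in an identical stretch cannot be assigned to either of the pair by sequence, so their separate TPM are uncertain. Summed, the pair stood at 468.6 and 448.6 TPM in KO and at 506.5 and 453.8 TPM in WT, so that KO 1 lay above WT 2 and the genotypes overlapped. With the sum in place of Pcna, an alternative chosen after the data were seen, the log2 difference was -0.064. Among the other genes, 7 had a pseudogene at least 95% identical over at least 200 bases, and of those copies only Gm48455, related to Rrm2, had a mean of at least 1 TPM, with 3.23 and 0 TPM in KO and 1.81 and 1.5 TPM in WT. Ccnb2-ps, by its name a pseudogene of Ccnb2, was not returned by this search. It was at 7.07 and 9.48 TPM in KO and at 6.775 and 5.50 TPM in WT. The annotated spans of 11 of the 45 genes overlapped another gene of at least 1 TPM on the opposite strand. Among them were Cdk4 (with Tspan31), Cdk2 (Pmel), Ccna2 (Exosc9), Kif20a (Cdc23) and Mcm7 (Cops6 and Ap4m1). Cdt1 overlapped Gm20388 on the same strand. No source used here says whether the libraries kept strand, so the levels of these genes are less certain.

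Among the mitosis genes, Cdk1 was the only one of the 20 whose libraries did not overlap by genotype, against 29.8% of all genes tested. Cdk1 (ENSMUSG00000019942.13, chromosome 10, 69335146 to 69352938) was at 354 and 345 TPM in KO and at 378 and 360 TPM in WT, a log2 difference of -0.077 (SE 0.067, 95% interval -0.25 to 0.099). The KO libraries lay just below WT 2. Kif23, a kinesin of the central spindle needed for cytokinesis, had the largest positive difference of the group, 0.14 (SE 0.16). It was at 127 and 160 TPM in KO 1 and KO 2, and at 117 and 143 TPM in WT 1 and WT 2. The genotypes overlapped, and the libraries numbered 2 were the high ones in both. Without KO 2 the Kif23 difference was -0.027 and without WT 1 it was -0.0064. Leaving out a library also unbalances the numbers between the genotypes, so number and genotype cannot be told apart in those 2 values. Between libraries of the same number, KO less WT for Kif23 was 0.12 for number 1 and 0.16 for number 2. Ccna2, the cyclin of S phase and G2, differed by 0.063 (SE 0.088) and Top2a by 0.053 (SE 0.078). Ccna2 was at 155 and 141 TPM in KO and at 148 and 135 TPM in WT, and again the numbers set the order, with the libraries numbered 1 above those numbered 2. The sign of Ccna2 changed without KO 1 (-0.0042) and without WT 2 (-0.0065), and that of Top2a without WT 2 (-0.02). Between libraries of the same number (1, then 2), Ccna2 differed by 0.061 and 0.065, and Top2a by -0.015 and 0.12. The remaining 16 mitosis genes, which include the spindle checkpoint genes Bub1, Bub3 and Mad2l1, the kinases Plk1, Aurka and Aurkb, and the proliferation marker Mki67, differed by -0.051 to 0.055.

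Among the regulators, Cdk2, the partner of the E and A cyclins, was at 87.9 and 81.4 TPM in KO and at 78.8 and 80.7 TPM in WT, a difference of 0.084 (SE 0.074). The KO libraries lay above the WT libraries, with KO 2 close to WT 2. Ccne1 was at 58.7 and 58.0 TPM in KO and at 61.6 and 60.5 TPM in WT, a difference of -0.064 (SE 0.068). The related Ccne2 was at 31.3 and 35.8 TPM in KO and at 37.6 and 27.7 TPM in WT, so that both extremes were WT libraries. E2f2 was at 9.99 and 11.7 TPM in KO and at 8.25 and 11.3 TPM in WT, a difference of 0.15 (SE 0.19) that was -0.061 without WT 1. Between libraries of the same number, E2f2 differed by 0.249 for number 1 and by 0.0445 for number 2. Ccnd2 differed by -0.077 (SE 0.074; -0.019 without WT 1), Ccnd1 by 0.0075 (SE 0.063) and Cdk4 by -0.016 (SE 0.080). The sign of Ccnd1 changed with median-of-ratios scaling (-0.024), and that of Cdk4 without KO 2 (0.013) or WT 2 (0.029).

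Set against each other, replication and mitosis genes gave differences between the genotypes of a few hundredths of a log2 unit. Relative to the mean of the 4 libraries, the replication genes lay at 0.025 in KO 1 and -0.039 in KO 2, and at 0.027 in WT 1 and -0.013 in WT 2 (mean log2 of TPM + 1). The mitosis genes lay at 0.0068 and 0.012 in KO and at -0.017 and -0.0012 in WT. The G1 and G1/S regulators lay at -0.0049 and 0.037 in KO and at -0.018 and -0.015 in WT. The mean difference, KO minus WT, was -0.014 for the 15 replication genes (6 higher, 9 lower), 0.019 for the 20 mitosis genes (14 higher, 6 lower) and 0.032 for the 10 regulators (7 higher, 3 lower). Over all genes tested the mean was 0.034. With median-of-ratios scaling the signs were 3 higher and 12 lower for replication, 9 and 11 for mitosis, and 5 and 5 for the regulators. The group means of mitosis genes and regulators were higher in both KO libraries than in either WT library, but with that scaling their mean differences were -0.013 and 0.0019. The replication genes overlapped between the genotypes.

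The replication mean less the mitosis mean was 0.018 in KO 1 and -0.051 in KO 2, against 0.044 in WT 1 and -0.012 in WT 2. The genotypes overlapped, since KO 1 lay above WT 2. The KO mean was -0.016 ± 0.049 and the WT mean 0.016 ± 0.040 (SD, n = 2 each), a difference of -0.033. Within each genotype the library numbered 1 was the higher. Between libraries of the same number, KO less WT was -0.026 for number 1 and -0.039 for number 2, the same sign in both. The difference was 0.0017 without KO 2 and -0.067 without KO 1. The same contrast over 42 other replication genes and 53 other mitosis genes gave 0.0094 and -0.036 in KO and 0.018 and 0.0085 in WT, or -0.0085 for number 1 and -0.044 for number 2. With 2 libraries on each side the smallest two-sided p an exact permutation test allows is 0.333.

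**Figure D4:**
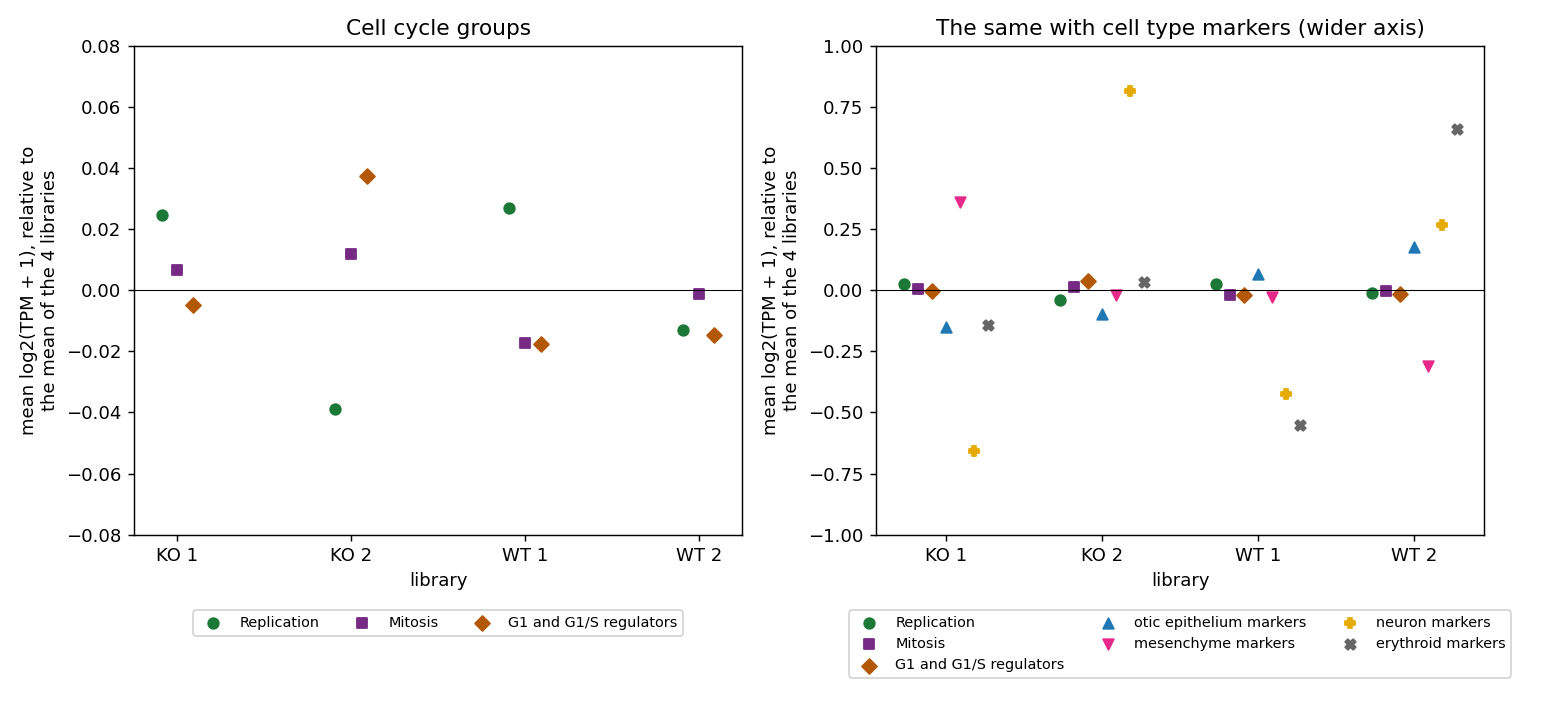
Mean log2(TPM + 1) of the replication genes, mitosis genes and G1 and G1/S regulators in each library, relative to the mean of the 4 libraries (left), and the same with 4 lists of cell type markers on a wider axis (right). The cell cycle groups stay between -0.04 and 0.04, while neuron markers run from -0.66 in KO 1 to 0.82 in KO 2.

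The libraries differed more by their number than by genotype, although the labels do not say what a shared number stands for. For 36 of the 45 genes the difference between the libraries numbered 2 and those numbered 1 was larger in size than that between KO and WT. Both libraries numbered 2 lay above both numbered 1 for 10 of the 45 genes (26.3% of all genes tested), and below them for 18 (21.7%). Together these were 62.2% of the 45, against 48.0% of all genes tested and 48.9% of those at least as abundant as the lowest of the 45. The largest positive differences were those of Cenpf, E2f2 and Kif23, each 0.31 higher in the libraries numbered 2, and the largest negative one was that of Mcm6, at -0.22. Cenpf was at 46.1 and 49.2 TPM in KO 2 and WT 2, against 39.7 and 36.7 TPM in KO 1 and WT 1. Mcm6 was at 140 and 149 TPM in KO 2 and WT 2, against 170 and 167 TPM in KO 1 and WT 1. Cdt1, which brings the helicase to origins, went with Cenpf rather than with Mcm6. Cdt1 was at 74.7 and 70.6 TPM in KO 2 and WT 2, against 61.6 and 59.4 TPM in KO 1 and WT 1. Of the 6 helicase subunits, 3 were lower in both libraries numbered 2, 0 were higher in both, and the others overlapped. Genes of either phase were found on either side. Of the 15 replication genes 2 were above and 8 below in the libraries numbered 2, and of the 20 mitosis genes 6 were above and 9 below.

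**Figure D5:**
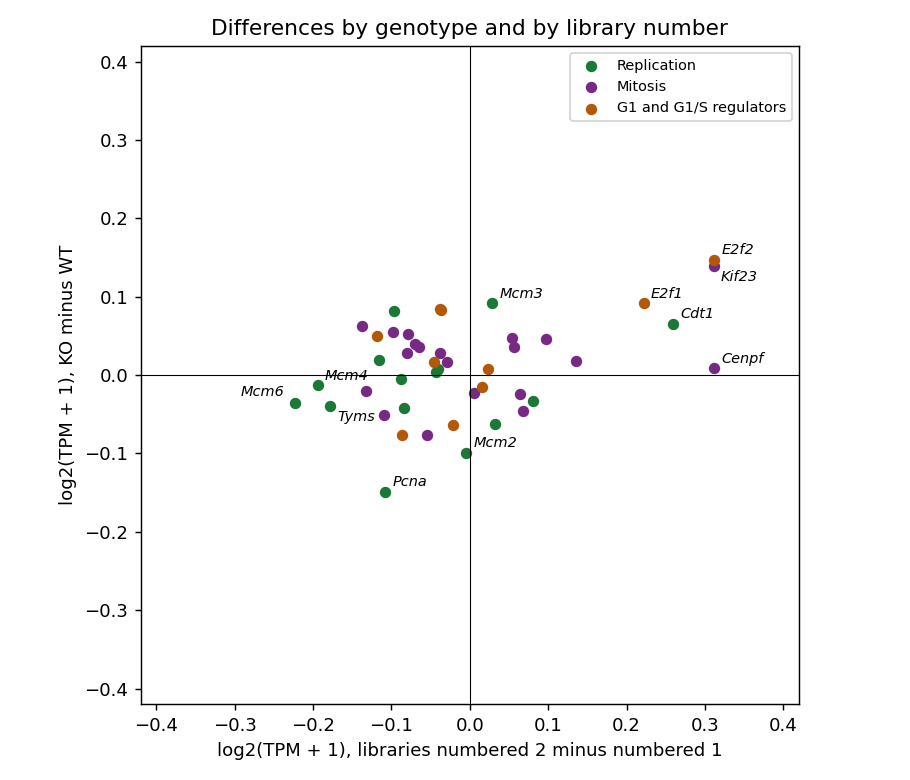
Log2(TPM + 1) difference between the libraries numbered 2 and numbered 1 (x axis) and between KO and WT (y axis) for the 45 cell cycle genes, coloured by role, with the same scale on both axes. The points spread from -0.22 to 0.31 along the number axis and from -0.15 to 0.15 along the genotype axis.

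Neuron markers, and less evenly erythroid and mesenchyme markers, also differed by library number. The 13 neuron markers, all tested, summed to 309 and 969 TPM in KO 1 and KO 2 and to 380 and 655 TPM in WT 1 and WT 2, and 12 of them were higher in both libraries numbered 2. The 11 erythroid markers summed to 13510 and 15370 TPM in KO 1 and KO 2 and to 10870 and 26020 TPM in WT 1 and WT 2, and 9 were higher in both libraries numbered 2. The 11 mesenchyme markers summed to 1446 and 970.7 TPM in KO 1 and KO 2 and to 1040 and 882 TPM in WT 1 and WT 2. Of these mesenchyme markers, 10 were higher in KO, and 7 were lower in both libraries numbered 2. Of the 14496 genes tested, 8923 were higher in KO. By number, 26.3% of all genes tested were higher in both libraries numbered 2, and 21.7% were lower in both. None of the neuron, erythroid and mesenchyme markers was at 0 in any library. Otic epithelium markers, in contrast, were lower in KO in 13 of 15, against 5573 of the 14496 genes tested. In 11 of the 15 both KO libraries lay below both WT libraries, against 10.5% of all genes tested. The part of these cell types in the levels of the cell cycle genes was not tested. Between the numbers, 1 of 7 endothelial, 0 of 9 macrophage and 1 of 3 tested skeletal muscle markers did not overlap, against 48.0% of all genes tested. Between the genotypes these counts were 4 of 7, 3 of 9 and 1 of 3, against 29.8% of all genes tested. Macrophage markers summed to 83.2 and 55.6 TPM in KO 1 and KO 2 and to 52.4 and 66.95 TPM in WT 1 and WT 2. Endothelial markers summed to 199 and 152 TPM in KO 1 and KO 2 and to 156 and 180 TPM in WT 1 and WT 2. Skeletal muscle markers summed to at most 29.8 TPM in any library. In whole vesicles, fewer cells of a type and less RNA per cell cannot be told apart.

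The other genes of the pathway gave no call either. The fit called 0.0% of all genes tested, so a count of 0 in the lists below is not particular to them. Of 42 other replication genes tested 0 passed, with 23 higher and 19 lower in KO and a median of 0.0073 (16 higher and 26 lower with median-of-ratios scaling). Cdc7, the kinase that fires origins, was at 37.8 and 39.9 TPM in KO and at 32.9 and 36.1 TPM in WT, a log2 difference of 0.17 (SE 0.089). Timeless, a protein of the replication fork, differed by 0.15 (SE 0.094), and by 0.054 without KO 2. Of 53 other mitosis genes 0 passed, with 37 higher and 16 lower and a median of 0.044 (31 higher and 22 lower with that scaling), beside 0.035 over all genes tested. The genes of smallest p there were Spc25, a kinetochore component, at 0.21 (SE 0.087), and Espl1, which encodes separase, at 0.21 (SE 0.090). Spc25 was at 126 and 114 TPM in KO and at 108 and 99.4 TPM in WT, with the KO libraries above the WT libraries.

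The CDK inhibitors, which hold cells out of the cycle, included the widest genotype difference among these lists. Cdkn1a, which encodes p21, was at 14.2 and 17.02 TPM in KO and at 20.02 and 25.9 TPM in WT. Both KO libraries lay below both WT libraries. The log2 difference was -0.52 (SE 0.17, 95% interval -0.97 to -0.080), with an unadjusted limma p of 0.03 and an adjusted p of 1.00, so Cdkn1a did not pass the threshold. Cdkn1c, which encodes p57 and was the most abundant inhibitor, was at 634 and 541 TPM in KO and at 572 and 611 TPM in WT, a difference of -0.013 (SE 0.10). Cdkn1b, which encodes p27, differed by 0.087 (SE 0.11), and by -0.036 without WT 2. Among the inhibitors of Cdk4 and Cdk6, Cdkn2d averaged 26.2 TPM in KO and 25.7 TPM in WT, above the median of 19.8 TPM over all genes tested. The others were low: Cdkn2c averaged 3.27 TPM in KO and 2.95 TPM in WT, and Cdkn2a and Cdkn2b were below the filter of 1 TPM. Of the 7 inhibitors, 5 were tested and 0 passed.

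Of 18 genes of the retinoblastoma, E2F and DREAM group 0 passed, with 12 higher and 6 lower in KO (8 and 10 with median-of-ratios scaling). E2f5, a repressive E2F factor, was at 46.0 and 42.95 TPM in KO and at 49.8 and 49.9 TPM in WT (-0.16, SE 0.077), and Rbbp4, a chromatin protein that binds Rb, differed by -0.10 (SE 0.065). Of 12 checkpoint and CDK-activating genes 0 passed, with 11 higher and 1 lower and a median of 0.067, beside 0.035 over all genes tested. With median-of-ratios scaling 10 were higher and 2 lower, with a median of 0.036 beside 0.0058 over all genes tested. Pkmyt1, an inhibitory kinase of Cdk1, was at 25.5 and 23.6 TPM in KO and at 21.2 and 21.8 TPM in WT (0.18, SE 0.092), and Chek1 differed by 0.11 (SE 0.091). Of 22 genes of the APC/C and SCF ubiquitin ligases 0 passed, with 14 higher and 8 lower (10 and 12 with median-of-ratios scaling). Cdc23, an APC/C subunit, was at 121 and 116 TPM in KO and at 106 and 105 TPM in WT, a difference of 0.16 (SE 0.065, 95% interval -0.0088 to 0.33), while the subunit gene Anapc13 lay on the other side at -0.10 (SE 0.066). The annotated span of Cdc23 overlaps that of Kif20a on the opposite strand, so its level is less certain.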

How the data were processed

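RNA was measured in 4 libraries of otic vesicles, grouped and numbered by the sample titles. The authors deposited gene-level TPM in a single table. Salmon 0.9.1 and GRCm38 are named in the submitters' processing notes, with the annotation release not given. Gene IDs were matched by number to GENCODE M21 (GRCm38), which named 34652 of 34866. Genes averaging 1 TPM or more were tested on log2(TPM + 1), a pseudocount of 1 TPM, in a model of genotype alone (limma 3.58.1, R 4.3.3, variances moderated along a trend with level), with two-sided p-values, Benjamini-Hochberg adjustment over all genes tested and 95% intervals. Differences on this scale understate those of low genes. Lists were described by counts, means and medians, with no test of their own. Near-identical pseudogenes were found with BLAST+ 2.17.0 in the GENCODE transcripts. The fit was tested on data simulated from its own variance model, with independent libraries. The simulation held no effect of replicate number, so it does not bear on deviations shared by same-numbered libraries. The members and lists were chosen with earlier results of these data known. Genes named in full were Meis2 and, in each role, the 4 with the smallest p and the 2 with the highest TPM, plus 2 genes of smallest p in each other list; other genes were named after their values were seen. Of the listed names, Claspn, Fam64a and Skp1 matched no symbol.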

Additional observations from a re-analysis of the deposited data

How the results depend on the processing

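No cell cycle gene passed the threshold under any setting run: other pseudocounts (0.1 and 5 TPM), other filters (none, or 5 TPM on average), median-of-ratios scaling, tables without globin, Y-linked and mitochondrial genes, no variance trend, a replicate block, leaving out each library, and adding near-identical copies, the last chosen after the data were seen. Over all genes the count called ranged from 0 to 10 with a library left out (10 without KO 2, 2 without KO 1) and was 0 otherwise.

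Median-of-ratios scaling moved the mean difference of the mitosis genes to -0.013 and that of the regulators to 0.0019, and changed the sign of 10 of the 45 genes, among them Ccnd1 (-0.024). With a library left out, the mean difference ran from -0.046 to 0.018 for the replication genes, from 0.011 to 0.027 for the mitosis genes and from 0.011 to 0.053 for the regulators. The replication less mitosis contrast ran from -0.067 to 0.0017. Leaving out a library also unbalances the replicate numbers between the genotypes. Between libraries of the same number, 15 of the 45 genes were higher in KO in both numbers and 9 were lower in both. For the other 21 the sign differed between the numbers. The sign of 34 of the 45 genes changed without some library. Among named genes this held for Kif23 (-0.027 to 0.30), Ccna2 (-0.0065 to 0.13), Top2a (-0.0203 to 0.13), E2f2 (-0.061 to 0.35), Cdk4 (-0.0601 to 0.029), Ccnd1 (-0.017 to 0.032) and Cdkn1b (-0.036 to 0.21). A further 13 of the 27 named genes kept their sign but moved by over 1.5 times without some library: Meis2 (-0.24 to -0.077), Pcna (-0.25 to -0.046), Cdk1 (-0.11 to -0.041), Ccnd2 (-0.13 to -0.019), Cdkn1a (-0.70 to -0.35), Rbbp4 (-0.14 to -0.068), Mcm3 (0.038 to 0.14), Cdk2 (0.03 to 0.14), Cdc7 (0.10 to 0.23), Timeless (0.054 to 0.25), Spc25 (0.14 to 0.28), Espl1 (0.14 to 0.29) and Chek1 (0.048 to 0.18).

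The libraries share the replicate numbers 1 and 2, and deviations of same-numbered libraries correlated across 14496 genes (r = 0.423), but the labels do not say what the number marks. With the replicate block 0 genes passed (smallest adjusted p 0.406), and 0 of the 45 (smallest adjusted p 0.615). The unknown depth of TPM limits what can be said of low genes such as Cdk6 and E2f2.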
